A study of Homo sapiens with 6 samples.

Results

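RAB proteins are small GTPases that sit on the surface of vesicles and organelles and direct where these go. A RAB is active while it holds GTP: exchange factors load it, GTPase-activating proteins switch it off, and effectors such as motors and tethers bind the active form. Each RAB marks certain membranes, so that early endosomes, recycling endosomes, lysosomes, Golgi stacks and secretory granules carry different members, and in pigment cells RAB27A, RAB32 and RAB38 serve the making and movement of melanosomes. RAB genes were chosen here by a rule on the name, with earlier results of these data known. The rule was RAB followed by a number and at most 1 letter, on a probe set that the platform annotation gives 1 gene symbol. This gave 60 of the 18417 genes of the table. RefSeq lists 59 of them as protein-coding and RAB1C as a pseudogene. Another 4 symbols (RAB34, RAB4B, RAB6C and RAB6D) occurred in the annotation on probe sets shared by several genes and were not analysed here.

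The cells were A375, an established human melanoma line whose BRAF kinase carries the V600E change. Vehicle cells received 0.1% DMSO and drug-treated cells received 10 µM vemurafenib, an inhibitor of mutant BRAF, both for 24 h, in 3 arrays per group of Affymetrix single-colour type. All levels are deposited log2 values of a probe set, and all changes are vemurafenib minus vehicle on that scale. The design text names a different stock of cells and a different day for each replicate, so within a group they are independent cultures of 1 line. The arrays are normalized to a common distribution, and a change in total RNA per cell would not be seen in them. The number of arrays limits the precision.

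The labelled cell type and treatment were checked first. The melanoma markers SOX10, MITF and S100B stood at 11.48, 10.17 and 10.3 in vehicle and rose by 0.30, 0.75 and 0.91, while the pigment genes PMEL, MLANA and TYR stood at 6.6, 5.78 and 5.34 in vehicle and did not pass. The 6 measured markers summed to 49.5 to 49.9 in vehicle and 51.4 to 51.8 with the drug. A mean of at most 6.87, the lower quartile over all genes, is called dim here: such a level was not shown to exceed background. All 4 genes of ERK pathway output that served as a check of the drug fell (DUSP6, SPRY4, ETV5 and CCND1), with changes of -2.49 to -4.21. Of the 4 leukocyte markers all were dim in both groups, with summed log2 levels of 24.1 to 24.4 in vehicle and 23.7 to 23.9 with the drug. Among these CD14 fell (-0.32), and PTPRC, CD3E and ITGAM did not pass. The 5 keratinocyte markers summed to 35.2 to 35.8 and 34.9 to 36.1, and none passed. The 5 endothelial markers summed to 35.1 to 35.9 and 33.9 to 34.6. KDR (-0.44), CLDN5 (-0.23) and PECAM1 (-0.33) fell, while CDH5 (-0.26) and VWF (0.04) did not pass. PECAM1, CDH5 and VWF were dim in both groups. The 6 fibroblast markers summed to 42.8 to 43.9 in vehicle and 44.9 to 46.2 with vemurafenib. DCN rose by 1.46 from a dim 5.46 in vehicle, and LUM rose by 1.13. COL1A1 (0.01), COL3A1 (-0.04), COL1A2 (-0.15) and the dim PDGFRA (-0.24) did not pass the test. The part of these markers in the RAB results was not tested.

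Promoter sequences are shown for the RAB genes that rose and whose window held 1 of the 2 motif types searched. RefSeq windows (build GRCh38.p14, 250 bases before to 50 after a start site) were found for 46 of the 60 genes. The AP-1 motif TGAGTCA, which is read by JUN and FOS proteins, was searched on both strands. It was present in the windows of 4 of 46 RAB genes (8.7%, against 6.05% of all genes with a window, tested or not). These were RAB27B, RAB3B, RAB13 and RAB5B, and all 4 rose with vemurafenib. Among RAB genes with a window these were 4 of 15 that rose, 0 of 27 that did not pass and 0 of 4 that fell. Over all windows 4.95% held the motif, and by gene it was 5.9% of the tested genes that rose, 4.95% of those that fell and 5.12% of those that did not pass. A match describes letters and shows no binding. The 2 RAB genes with the largest rises, RAB27B and RAB3B, are shown with the 250 bases before the start site, 5′ to 3′ on the gene's strand, and the capitals mark the AP-1 motif. The RAB27B stretch is chr18:54828227-54828476 on the plus strand and belongs to 1 of 2 start sites listed for that gene. The RAB3B stretch is chr1:51990701-51990950 on the minus strand.
RAB27B: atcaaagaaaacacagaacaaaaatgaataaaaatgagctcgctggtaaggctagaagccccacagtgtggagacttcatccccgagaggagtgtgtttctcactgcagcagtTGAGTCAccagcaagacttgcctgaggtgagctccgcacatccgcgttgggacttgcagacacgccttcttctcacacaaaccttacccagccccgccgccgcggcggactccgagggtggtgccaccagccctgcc
RAB3B: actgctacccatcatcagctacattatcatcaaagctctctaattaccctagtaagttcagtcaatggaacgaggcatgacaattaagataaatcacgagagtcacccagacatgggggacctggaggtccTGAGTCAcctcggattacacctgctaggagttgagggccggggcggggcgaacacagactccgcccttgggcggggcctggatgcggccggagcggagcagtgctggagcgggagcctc

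The motif began 137 bases before the start site in RAB27B and 119 bases before it in RAB3B. For RAB13 and RAB5B, 30 bases around the match are given. RAB13 holds the motif on both strands, beginning 102 and 89 bases before 1 of its 2 listed start sites (chr1:153985471-153985500, minus strand), and RAB5B holds it 210 bases before 1 of 2 (chr12:55973727-55973756, plus strand).
RAB13: gtctcTGAGTCAgcctggTGACTCAtcctc
RAB5B: attagatgtttaTGAGTCAaaaggcggggt

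The other motif was the M-box of the MITF family (MITF itself rose by 0.75), TCACGTG or TCATGTG, on both strands, some matches of which overlap because CACGTG reads the same on either strand. It lay in the windows of 6 of 46 RAB genes (13.0%, against 7.89% of all genes with a window, tested or not). These were RAB24 and RAB31, which rose, and RAB5A, RAB17, RAB21 and RAB29, which did not pass. Among RAB genes with a window they were 2 of 15 that rose, 4 of 27 that did not pass and 0 of 4 that fell. Of the tested genes 10.4% of those that rose held it, 8.18% of those that fell and 8.07% of those that did not pass. The matches of the risers are shown, with the motif in capitals, at chr5:177303732-177303761 (minus strand) for RAB24 and chr18:9708229-9708258 (plus strand) for RAB31.
RAB24: cggcgcccgcgcCACGTGAccttgcggccc
RAB31: ccggccggcggcCACGTGAcccaccgcggc

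With vemurafenib, 18 of the 60 RAB genes rose, 7 fell and 35 did not pass the test (limma, Benjamini-Hochberg adjusted p under 0.05 over all 18417 genes). Rises were led by RAB27B (2.92-fold) and RAB3B (2.82-fold), both RABs of secretory vesicles, and by RAB26 (2.02-fold). RAB39A and RAB8A had the largest falls. The 18 of 60 that rose stood beside 23.2% of all genes tested, the 7 that fell (11.7%) beside 22.2%, and the 25 that passed either way (41.7%) beside 45.5%. At a fold of at least 1.5, 9 of 60 RAB genes rose, against 8.71% of all genes, and 1 fell (1.67%, against 7.03%), so that 10 passed either way (16.7%, against 15.7%). The median change was 0.026 over the RAB genes and -0.045 over all genes. Centring each array on its median over the 18417 genes (not over all probe sets) moved changes by -0.061 and the RAB split from 18 higher and 7 lower to 16 higher and 10 lower, and over all genes to 20.0% higher and 30.6% lower. The drug and vehicle arrays did not overlap for 26 RAB genes (43.3%, against 55.4% of all genes), namely the 25 that passed and RAB5C. The drug arrays were wholly higher for 18 (26.9% of all genes) and wholly lower for 8 (13.3%, against 28.5% of all genes).

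**Figure D1:**
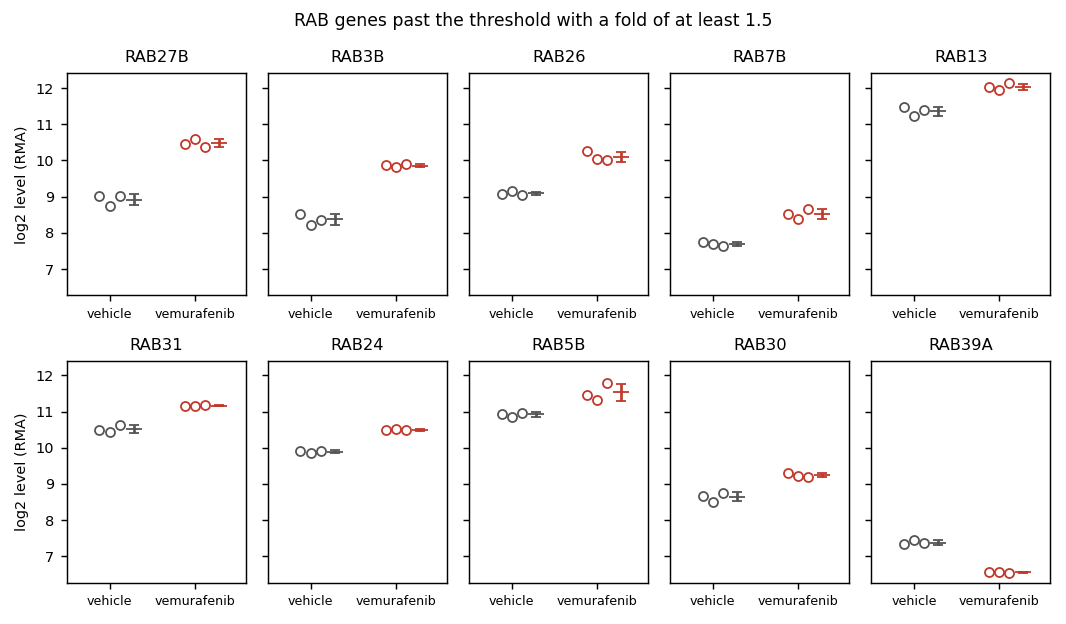
Log2 levels of the 10 RAB genes past the threshold with a fold of at least 1.5, 1 panel per gene; open circles are the 3 arrays of each group (vehicle grey, vemurafenib red), and the bar beside them is their mean with its SD. The groups lie apart in every panel, with the drug arrays above vehicle in 9 panels and below it for RAB39A.

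The RABs of regulated secretion, which bring granules and synaptic-type vesicles to the plasma membrane, rose in 3 of 6 cases, and the other 3 did not pass. RAB3B, which serves the release of hormone granules, read 8.51, 8.23 and 8.36 in the vehicle arrays and 9.87, 9.82 and 9.9 with vemurafenib. Each drug array lay more than 1 log2 unit above each vehicle array, and the change was 1.5 (SE 0.08), 2.82-fold, with a limma adjusted p of 9.53e-08. RAB26, a RAB of secretory granules that also links vesicles to autophagy, read 9.08, 9.15 and 9.05 in vehicle against 10.26, 10.04 and 10.02 with the drug. Its groups lay apart, and it rose 2.02-fold (1.01, SE 0.08, limma adjusted p 1.81e-06). RAB3D, known from the granules of exocrine cells, rose 1.36-fold, from 8.46, 8.33 and 8.49 to 8.88, 8.79 and 8.93. RAB3A, the RAB of synaptic vesicles, changed by -0.04 (95% interval -0.22 to 0.14), RAB3C by -0.14 (-0.33 to 0.06) and RAB37 by -0.07 (-0.23 to 0.10), none past the test. RAB3C and RAB37 were dim in both groups.

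Of the 4 RABs of melanosomes and other lysosome-related organelles, 1 rose and 3 did not pass. The riser was RAB27B, which docks secretory granules and exosome-bearing endosomes at the plasma membrane. Its levels were 9.01, 8.74 and 9.01 in vehicle and 10.45, 10.58 and 10.37 with vemurafenib. Groups lay well apart, by a change of 1.54 (SE 0.09), 2.92-fold, with a limma adjusted p of 1.67e-07, the largest rise among the 60 genes. Its close relative RAB27A, which ties melanosomes to a myosin motor, read 8.3, 8.21 and 8.29 in vehicle and 8.1, 8.31 and 8.21 with the drug, and these groups overlapped. RAB38 and RAB32, which deliver pigment enzymes to young melanosomes, changed by -0.04 (95% interval -0.22 to 0.14) and -0.07 (-0.25 to 0.12).

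Late endosome, lysosome and autophagy RABs rose in 5 of 8 cases and fell in 1, and the shares of all genes to read this and the other role counts against are 23.2% higher and 22.2% lower. RAB7B, which returns cargo from late endosomes to the Golgi, read 7.75, 7.69 and 7.63 in vehicle and 8.52, 8.38 and 8.67 with the drug. It rose 1.78-fold with no overlap (0.83, SE 0.09, limma adjusted p 1.15e-05). RAB24, a RAB of autophagy, went from 9.92, 9.85 and 9.91 to 10.49, 10.53 and 10.48, which was 1.52-fold, and the spread within either group was far smaller than the gap. RAB9A, which also carries cargo from late endosomes to the Golgi, rose 1.40-fold, from 9.25, 8.98 and 9.08 to 9.51, 9.68 and 9.58. Its relative RAB9B rose by 0.23, a call that was lost after centring (limma adjusted p 0.064) and without vehicle replicate 1 (0.0962) or vemurafenib replicate 1 (0.0734). The RAB9B mean in vehicle (7.27) lay close to the 95th percentile (7.28) of the olfactory receptor genes on the array, so background limits this rise. RAB7A, the main RAB of the step from late endosome to lysosome, changed by -0.06 (95% interval -0.21 to 0.10) on its brighter probe set and by 0.12 (SE 0.11) on the other, and neither passed. RAB29, a RAB that recruits the kinase LRRK2, changed by 0.05.

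RAB39A, which acts in phagosome and autophagosome maturation, read 7.33, 7.46 and 7.36 in vehicle and 6.56, 6.58 and 6.55 with vemurafenib. The groups lay apart, the change was -0.82 (SE 0.07, limma adjusted p 2.48e-06), and this was the largest fall among the 60 genes. Its drug level was dim, so background limits the fold of 1.77. RAB39B, its relative, rose by 0.28 (SE 0.08) from a mean of 7.24 in vehicle, and background limits that rise too.

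Early endosome RABs rose in 3 of 9 cases and fell in 1. RAB31, which moves cargo between the Golgi and endosomes, read 10.49, 10.43 and 10.63 in vehicle and 11.14, 11.15 and 11.18 with the drug, a rise of 1.55-fold (0.64, SE 0.08) without overlap. RAB5B, 1 of 3 forms of the RAB that drives fusion of early endosomes, read 10.93, 10.85 and 10.96 against 11.47, 11.33 and 11.78. Its drug arrays were more spread than its vehicle arrays (SD 0.23 and 0.06), and the rise was 1.53-fold (0.61, SE 0.11, limma adjusted p 0.000566). The other forms, RAB5A (0.06, 95% interval -0.09 to 0.22) and RAB5C (-0.14, -0.28 to 0.01), did not pass. RAB4A, a RAB of fast recycling from early endosomes, rose by 0.32 (SE 0.08), and RAB20, which acts on phagosomes, fell by 0.33 on the log2 scale (SE 0.08). RAB22A, RAB17 and RAB21 lay between 0.03 and -0.12.

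Among 11 RABs of recycling and of transport to the plasma membrane, 3 rose and 2 fell. RAB13, a RAB of cell junctions, read 11.47, 11.22 and 11.4 in vehicle and 12.02, 11.95 and 12.13 with the drug. It rose 1.59-fold with no overlap, and its 2 probe sets gave changes of 0.67 and 0.64. Whether both sets bind only RNA of the RAB13 gene was not tested. RAB8A, which brings Golgi-derived vesicles to the cell surface and to cilia, read 10.74, 10.63 and 10.71 in vehicle and 10.24, 10.17 and 10.17 with vemurafenib, a change of -0.50 (SE 0.07, limma adjusted p 0.000129). RAB8B, its close relative, moved the other way, from 9.89, 9.69 and 9.85 to 10.26, 10.26 and 10.27 (0.45, SE 0.08, limma adjusted p 0.000453). Neither gene had overlapping groups. RAB35, of fast recycling to the surface, fell by 0.35 on the log2 scale (SE 0.09), and RAB15, which acts on endocytic recycling in neurons, rose by 0.34 (SE 0.08). The main RABs of the recycling endosome, RAB11A (0.08) and RAB11B (0.12), and RAB10 (0.06), RAB14 (0.09) and RAB12 (-0.04) did not pass, nor did RAB25 (-0.21), an epithelial RAB that was dim in both groups.

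Most RABs of the step from endoplasmic reticulum to Golgi and of the Golgi itself stayed short of the threshold: of 13 genes, 2 rose, 1 fell and 10 did not pass. RAB30, which keeps Golgi structure, read 8.67, 8.51 and 8.76 in vehicle and 9.31, 9.23 and 9.2 with the drug, a rise of 1.52-fold (0.60, SE 0.08) without overlap. RAB2B rose by 0.27 (SE 0.08), while its relative RAB2A changed by -0.09 (95% interval -0.30 to 0.13). RAB1A and RAB1B, which license vesicles leaving the endoplasmic reticulum, changed by 0.12 (-0.07 to 0.30) and 0.10 (-0.07 to 0.26), and RAB6A, of traffic within and from the Golgi, by -0.04 (-0.19 to 0.12). RAB18, a RAB of lipid droplets, changed by -0.05, and RAB6B, RAB33A, RAB33B and RAB43 lay between 0.12 and -0.12. RAB36 fell by 0.20 on the log2 scale, a call that ended in 8 of 14 alternatives, among them all of those without 1 array except vehicle replicate 2 (limma adjusted p 0.134 without vehicle replicate 1, 0.0933 without vehicle replicate 3, 0.0533, 0.104 and 0.0732 without vemurafenib replicates 1, 2 and 3). RAB41 (-0.23) was dim in both groups and did not pass. The pseudogene RAB1C changed by 0.02 from a level of 11.29, and whether its probes also bind RNA of the coding RAB1 genes was not tested.

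In the remaining groups the changes were small. RAB23, a RAB that restrains Hedgehog signalling, fell by 0.35 on the log2 scale (SE 0.10), from 8.86, 8.82 and 8.97 to 8.63, 8.68 and 8.29, and did not pass without vehicle replicate 3 (limma adjusted p 0.0555). RAB28, of cilia, changed by -0.10. Of the RAB40 genes, whose proteins carry a SOCS box and join ubiquitin ligases, RAB40C rose by 0.24, RAB40B stood at 0.21 and RAB40A at -0.05. The RAB40C call was lost after centring (limma adjusted p 0.0658) and without vehicle replicate 2 (0.0736), vehicle replicate 3 (0.0562) or vemurafenib replicate 1 (0.129). RAB44 fell by 0.25 on the log2 scale in a range where both groups were dim, and did not pass without vehicle replicate 1 (0.0696), vehicle replicate 2 (0.0546) or vemurafenib replicate 2 (0.068). Its other probe set gave -0.24. RAB19 (-0.08) and the dim RAB42 (-0.38, 95% interval -0.74 to -0.02) did not pass. Of the 35 RAB genes that did not pass, 34 had 95% intervals that lay within 1.5-fold either way, RAB42 being the exception. RAB37, RAB3C, RAB25 and RAB41 were among the 34 but dim in both groups, so background limits what their intervals say.

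**Figure D2:**
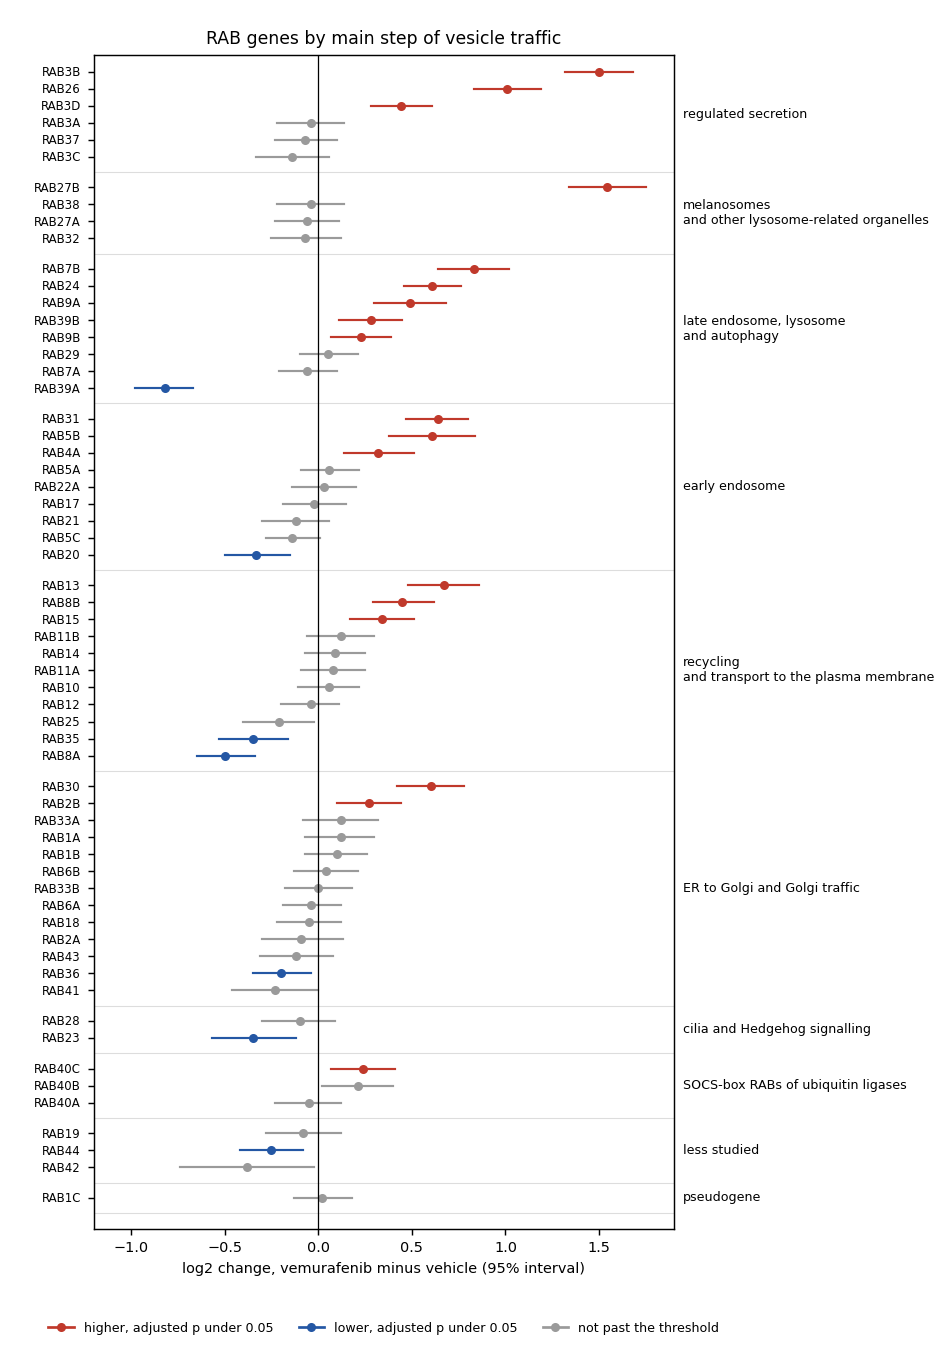
Log2 change (vemurafenib minus vehicle) of each of the 60 RAB genes with its 95% interval from limma, grouped by the main step of traffic (right) and ordered by change within a group; red marks genes that rose, blue those that fell and grey those not past an adjusted p of 0.05. RAB27B (1.54) and RAB3B (1.5) lie farthest right and RAB39A (-0.82) farthest left.

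Coding RAB genes that share a number are paired here as relatives by name, and their sequences were not compared. They formed 13 families with 30 genes and 22 pairs. In 2 pairs the members moved in opposite directions (RAB8A and RAB8B, RAB39A and RAB39B), in 2 pairs both rose (RAB3B and RAB3D, RAB9A and RAB9B), in 11 pairs 1 member passed the test, and in 7 pairs neither did. The difference between relatives was tested within each array: the RAB8A level minus the RAB8B level was 0.88 ± 0.05 (SD, n = 3) in vehicle and -0.07 ± 0.04 with vemurafenib, a shift of -0.95. These are differences of 2 probe sets, so the shift can be read and the ratio itself cannot. RAB39A minus RAB39B shifted by -1.10, a value that background limits because RAB39A was dim with the drug and the RAB39B mean of 7.24 in vehicle lay under the 95th percentile (7.28) of the olfactory receptor genes on the array. RAB27A minus RAB27B shifted by -1.60, RAB3A minus RAB3B by -1.54, RAB7A minus RAB7B by -0.89 and RAB5A minus RAB5B by -0.55. As background, the groups of 55.4% of all single genes did not overlap, and no share over pairs of other genes was computed. Some pairs share a gene, so the 22 are not independent. The array differences did not overlap between the groups in 16 of 22 pairs. For each of these an exact 2-sided permutation test over the arrays gave p = 0.1, the smallest that 3 against 3 arrays allow, and 0.138 after Benjamini-Hochberg adjustment over the 22 pairs, so no pair could pass 0.05. The other 6 pairs overlapped, with shifts of 0.02 for RAB1A minus RAB1B, -0.08 for RAB6A minus RAB6B, 0.26 for RAB9A minus RAB9B, -0.04 for RAB11A minus RAB11B, 0.12 for RAB33A minus RAB33B and -0.02 for RAB40B minus RAB40C.

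**Figure D3:**
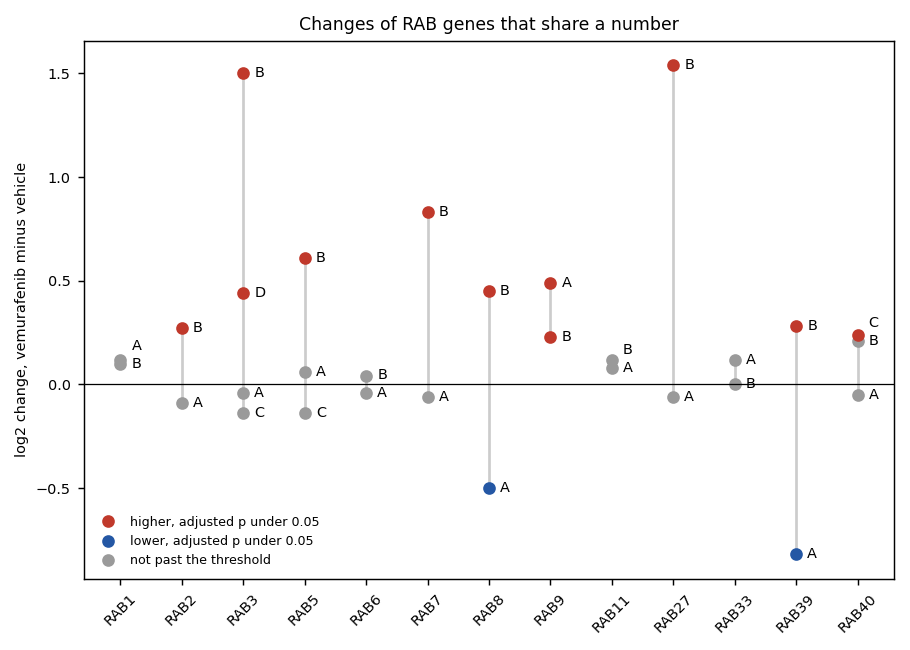
Log2 change (vemurafenib minus vehicle) of the 30 coding RAB genes that share a number with another, 1 column per family, letters naming the member; red rose, blue fell, grey did not pass an adjusted p of 0.05. RAB8A and RAB8B, and RAB39A and RAB39B, lie on opposite sides of 0, while the RAB1, RAB6 and RAB11 families lie close together.

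Genes of the proteins that load, switch and read RABs were counted in lists. RABs must be given a lipid tail before they can sit on a membrane, and of 8 measured genes for this step and for RAB recycling, 3 fell and 2 rose (median change 0.03). CHML, a protein that escorts new RABs to the prenylating enzyme, fell by 0.71 on the log2 scale (SE 0.10), and RABGGTB, a subunit of that enzyme, by 0.44 (SE 0.07), while the other subunit RABGGTA changed by 0.05. GDI2, which lifts RABs off membranes, fell by 0.20 on the log2 scale, a call that ended in 6 of 14 alternatives, among them renewed quantile normalization (limma adjusted p 0.11) and those without vehicle replicate 1 (0.144) or vemurafenib replicate 1 (0.0734), 2 (0.0567) or 3 (0.0862). YIPF1 rose by 0.29. RABAC1 rose by 0.28, and was not called without vehicle replicate 3 (0.0602) or vemurafenib replicate 1 (0.0516).

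Of 36 exchange factor genes 12 rose and 3 fell, with a median of 0.09, and 9 rose and 5 fell after centring. RIN2, an exchange factor for RAB5 proteins, rose 2.12-fold, from 8.24 ± 0.09 to 9.32 ± 0.08 (SD, n = 3). DENND4C, which acts on RAB10, rose by 0.63, DENND2B, which acts on RAB13, by 0.51 and HPS1, a subunit of the exchange factor for RAB32 and RAB38, by 0.44. MON1A, of the complex that loads RAB7A, fell by 0.31 on the log2 scale, while its relative MON1B, named after its value was seen, rose by 0.21. MON1B did not pass after centring (limma adjusted p 0.0796) or without vehicle replicate 2 (0.0676) or 3 (0.0914) or vemurafenib replicate 1 (0.114) or 3 (0.0582). GTPase-activating proteins, which end the active state, rose in 13 of 35 cases and fell in 4, with a median of 0.10. After centring 11 of them rose and 4 fell. TBCK rose 2.20-fold, TBC1D5, which acts on RAB7A beside the retromer, by 0.68, RABGAP1 by 0.57 and SGSM3 by 0.56. TBC1D30, which acts on RAB8A, fell by 0.62 on the log2 scale, to a dim 6.7, and TBC1D4, which acts on RAB10 in glucose transporter traffic, by 0.50. The all-gene shares beside these lists were 23.2% higher and 22.2% lower, and 20.0% and 30.6% after centring.

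Effectors had 21 rises and 5 falls among 49 measured genes, with a median of 0.16, and 19 rises and 8 falls after centring (all genes: 23.2% rose and 22.2% fell, and 20.0% and 30.6% after centring). The largest rises were those of SYTL2, VPS39, VPS41 and MICAL1, and the largest falls those of SYTL5, MLPH, BICD2 and EXOC6. Sorting effectors by the RAB they bind was done after the values were seen. Of 9 that bind RAB27 proteins, 4 rose, 2 fell and 3 did not pass. SYTL2, which docks granules at the plasma membrane, rose from 7.51 ± 0.08 to 8.81 ± 0.21 (SD, n = 3), or 2.47-fold, and its relative SYTL5 went from 11.05 ± 0.15 to 9.73 ± 0.02 (SD, n = 3), a change of -1.31. MLPH (melanophilin), which joins RAB27A to the myosin motor of melanosomes, fell by 0.61 on the log2 scale, while the motor gene MYO5A changed by -0.13 (limma adjusted p 0.17). The MLPH mean with the drug (7.15) lay under the 95th percentile (7.28) of the olfactory receptor genes, so background limits its fall. UNC13D, which primes granules for release, rose by 0.44. EXPH5 and SYTL3 rose by 0.81 and 0.39, from 5.65 and 6.41 in vehicle to 6.45 and 6.8 with the drug. EXPH5 and SYTL3 were dim in both groups, so background limits their rises. SYTL1, SYTL4 and MYRIP did not pass.

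Of 6 effectors that act with RAB7A on late endosomes and lysosomes, 5 rose and FYCO1 did not pass (0.20, limma adjusted p 0.0542). VPS39 and VPS41, subunits of the HOPS tether that lets vesicles fuse with lysosomes, rose 2.03-fold and 1.91-fold, PLEKHM1 and OSBPL1A by 0.80 and 0.82, and RILP, which links late endosomes to a motor, by 0.27. The all-gene share that rose was 23.2%, and RAB7A itself stood at 13.37 in vehicle and 13.32 with the drug. Of 6 effectors of the RAB5 proteins, EEA1, a tether of early endosomes, rose (0.27), the adaptor gene APPL1 fell (-0.38) and 4 did not pass. EEA1 no longer passed after centring (limma adjusted p 0.122), nor without vehicle replicate 1 (0.0847), 2 (0.12) or 3 (0.0718) or vemurafenib replicate 1 (0.0731) or 2 (0.174). Of the 5 RAB11FIP genes, whose proteins bind RAB11, RAB11FIP4 passed (0.48) and the other 4 did not. BICD2, which connects RAB6 vesicles to dynein, fell by 0.60 on the log2 scale and EXOC6, a subunit of the exocyst, by 0.41, and MICAL1, which acts on actin, rose by 0.83.

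Among 18 measured genes of melanosome cargo and of the BLOC complexes that build melanosomes, 4 rose and 2 fell, and 3 rose and 3 fell after centring. Of all genes 23.2% rose and 22.2% fell, and 20.0% and 30.6% after centring. LYST, which controls the size of lysosomes and melanosomes, rose 3.37-fold, from 9.17 ± 0.13 to 10.92 ± 0.21 (SD, n = 3), HPS3, a BLOC subunit, by 0.40 and SNAPIN by 0.39. AP3B1, an adaptor subunit, rose by 0.27, but not after centring (limma adjusted p 0.0522) or without vehicle replicate 2 (0.053) or vemurafenib replicate 1 (0.0677) or 2 (0.062). The fallers were OCA2, a melanosome membrane protein (-0.23), and HPS6, a BLOC subunit (-0.21). The OCA2 mean with the drug (7.11) lay under the 95th percentile (7.28) of the olfactory receptor genes, so background limits its fall. OCA2 lost its call in 8 of 13 alternatives, among them those without vehicle replicate 1 (limma adjusted p 0.0837), 2 (0.10) or 3 (0.0887) or vemurafenib replicate 1 (0.191) or 2 (0.107). HPS6 lost it in 5 of 14, among them those without vehicle replicate 1 (0.104) or 3 (0.0747) or vemurafenib replicate 1 (0.0784) or 2 (0.050). Both fell short together, leaving 0 falls, without vehicle replicate 1 or 3 or vemurafenib replicate 1 or 2. The cargo and membrane genes PMEL, TYR, TYRP1, MLANA, SLC45A2 and GPR143 did not pass and were dim in both groups.

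**Figure D4:**
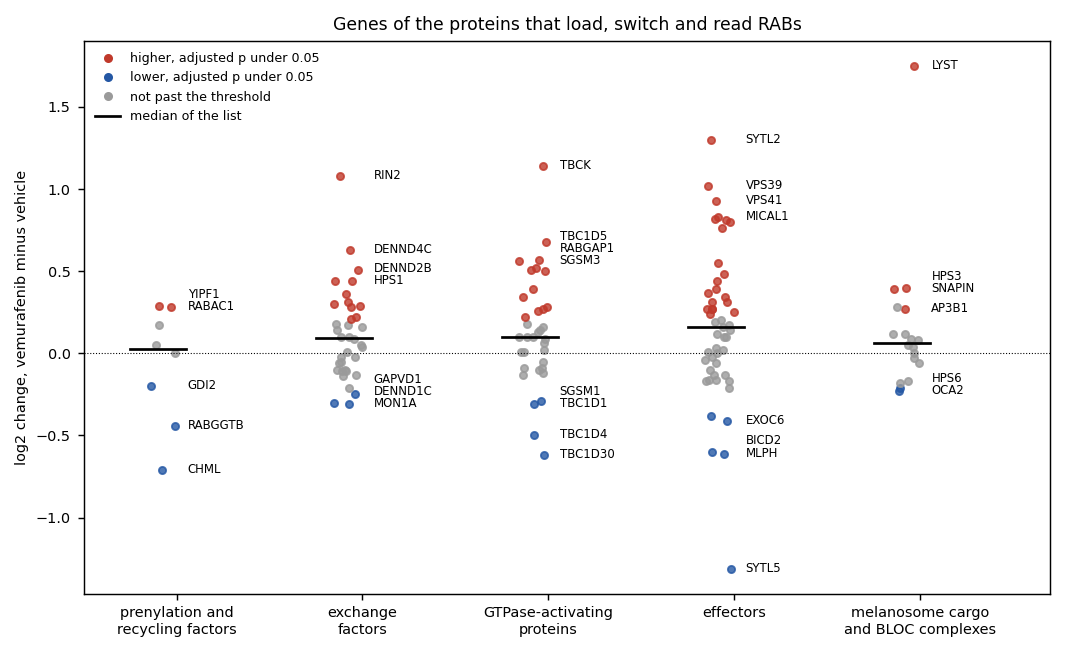
Log2 change (vemurafenib minus vehicle) of each measured gene in 5 lists (columns): RAB prenylation and recycling factors, exchange factors, GTPase-activating proteins, effectors, and melanosome cargo with BLOC complexes. Points are genes (red rose, blue fell, grey not past an adjusted p of 0.05; sideways position is arbitrary), black lines are list medians, and names mark the largest changes; effectors span from SYTL5 (-1.31) to SYTL2 (1.30).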

How the data were processed

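The authors deposited log2 values, 1 for each probe set and array. Per the submitters' processing notes they used RMA and Partek (versions not given in the sources used here, nor the handling of batches). The table held 33297 probe sets on 6 arrays, none missing, and the median of an array lay between 7.69 and 7.73. Platform annotation of probe sets with 1 symbol gave 18417 genes, each taken as its probe set with the highest mean. All 60 RAB genes matched RefSeq by Entrez identifier under the same symbol, and 3 of them had 2 probe sets.

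Groups came from the sample titles. Genes were tested with limma 3.58.1 under R 4.3.3 (lmFit, eBayes, group as the only term, 2-sided, Benjamini-Hochberg over all genes, threshold 0.05, no filter on dim genes, prior degrees of freedom 7.08), tested on simulated data. Relatives were compared with exact permutation tests (scipy 1.17.1). RAB genes past the threshold with a fold of at least 1.5 have their value in every array, and up to 4 genes per list and direction are named. Roles and lists were written by hand. The members and lists were chosen with earlier results of these data known. Promoters are RefSeq's (GRCh38.p14), and 14 RAB genes had no window: RAB1A, RAB1C, RAB2A, RAB12, RAB15, RAB20, RAB26, RAB33A, RAB33B, RAB36, RAB37, RAB38, RAB39B and RAB44. Alternatives were a fixed or random replicate block (statmod 1.5.0), each array centred on its median over the 18417 genes, quantile normalization run again, the dimmest 25% or 50% of genes dropped, probe sets of a gene averaged, eBayes with a trend and robust, and each array left out in turn.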

Additional observations from a re-analysis of the deposited data

How the results depend on the processing

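Over 14 alternatives the number of RAB genes past the threshold ran from 20 to 26 against 25, and no call reversed. It was lowest (20 of 41 tested, where 64.7% of all genes passed) without the dimmest 50% of genes. The highest count (26) came after centring, where 50.6% of all genes passed. When 1 array was left out it ran from 22 to 25, and the share of all genes from 39.2% to 45.2%. Of the 25 genes, 20 kept their call and direction in every alternative that tested them; RAB23, RAB36, RAB40C, RAB44 and RAB9B did not, and the cause was not tested. In the other direction RAB5C, RAB25, RAB40B, RAB41 and RAB42 were called in 2 or 3 alternatives each, RAB5C at limma adjusted p values of 0.0258 after centring and 0.00744 with a trend and robust eBayes. The helper lists, with 8, 36, 35, 49 and 18 measured genes, had 69 calls together, where 45.5% of all genes passed. Over the alternatives they had 54 to 75 calls. The 54 came without vemurafenib replicate 1, where 39.2% of all genes passed. The 75 came after renewed quantile normalization, where 48.4% of all genes passed.

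The series' design text pairs dishes by letter, which the labels give for 1 array. Deviations of same-numbered vehicle and vemurafenib arrays from their group means correlated at 0.142, -0.184 and -0.251, and 2 of 6 arrays correlated best with their own number, so the numbers were not taken as pairs. The highest correlations were 0.279 for vehicle 2 with vemurafenib 3 and 0.225 for vehicle 3 with vemurafenib 2, a hint at other pairs from the data and not from the labels, and no block was built on them. With the replicate block 24 RAB genes passed (18 higher, 6 lower) and 60 helper genes, and with a random block 24 and 66. RAB36, GDI2, HPS6, OCA2, EEA1 and MON1B were among the calls lost under the fixed block (limma adjusted p 0.0652, 0.062, 0.056, 0.0613, 0.0717 and 0.0568). No detection calls were used, so dim genes have no measured lower bound.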
